A study of Mus musculus with 8 samples.

Results

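Tip60-p400 is a chromatin complex that joins an acetyltransferase, Tip60, to a motor ATPase, p400. The 10 genes of its core described here were Kat5, which encodes Tip60, Ep400, which encodes p400, Trrap, Epc1, Epc2, Brd8, Ing3, Morf4l1, Yeats4 and Dmap1. They were chosen by name, and every non-control probe that the scanner files name for one of them was taken. That gave 20 probes of 39429 on the arrays, and 17 of the 20, with at least 1 for each gene, passed a filter on dim signal that 22546 probes passed in all. RNA came from E14 mouse embryonic stem cells (ESCs), pluripotent cells grown without feeder cells, 72 hours after infection with lentivirus carrying a short hairpin RNA. The 4 groups were control KD (a hairpin against EGFP), Tip60 KD, Hdac6 KD and a double KD with the hairpins for Tip60 and Hdac6 together, where KD stands for knockdown, with 2 replicates each, A and B. All groups, the control included, were infected, and each target was depleted with 1 hairpin, which the study picked as its most effective of several. Hdac6, a deacetylase, was depleted because it was studied as a partner of the complex, and the arrays ask whether gene expression depends on it as it does on Tip60.

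Tip60 acetylates histones H4 and H2A and many other proteins, while p400 exchanges histone H2A for the variant H2A.Z. Trrap, a giant scaffold, binds transcription factors such as Myc and brings the complex to promoters. Epc1 and Epc2 are alternative scaffolds that hold Tip60 and Ing3 together in the catalytic module, and Brd8, Ing3, Morf4l1 and Yeats4 carry domains that bind modified histones. In ESCs the complex is known for repressing developmental genes and for a need in self-renewal.

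Signal is given as log2 of the background-subtracted intensity over the 75th percentile of its array, so that 0 is the percentile itself, and levels were not compared between probes. A probe was called at an adjusted p under 0.1 in limma's test over all 22546 probes. Of 43020 spots on an array, 21896 to 40609 were well above background, and replicates correlated across probes with r of 0.986 to 0.989. Among arrays of the same letter, the control KD array had the fewest spots above background. It had 31179 against 39622 to 40609 with letter A, and 21896 against 27056 to 40276 with letter B. Its median subtracted background was the highest, at 61.0 against 37.2 to 39.4 with A and 114.3 against 41.4 to 89.0 with B. The part of this in the differences from control KD was not tested. Replicates A lay on 1 slide and replicates B on another, with each group at the same position on both, so that position and group cannot be told apart. A second fit took the letter as a block, and the calls that it changed are given beside the results. The RNA is of bulk cultures, in which fewer cells of a type and less RNA per cell cannot be told apart. Of 10 ESC markers, 8 were above the floor of -2.79 on all 8 arrays and Nanog and Tdgf1 on 7, each with a spot set aside as an outlier on the other. Of 20 markers of fibroblasts, primitive endoderm, trophectoderm and neural cells, 8 were at the floor on every array, Cdx2, Gata6, Postn and Dcn among them. The summed linear signal of the 4 neural markers was 2.05 to 2.27 on the control arrays, 4.0 to 4.28 on those of Tip60 KD, 2.38 to 2.72 on those of Hdac6 KD and 3.70 to 3.97 on those of double KD, mostly through Tubb3. That of the 6 fibroblast markers, mostly through Thy1 and Col1a1, was 2.06 to 2.26 in control KD, 2.64 to 3.08 in Tip60 KD, 2.12 to 2.20 in Hdac6 KD and 2.76 to 3.04 in double KD. That of the 4 trophectoderm markers was higher in Tip60 KD (0.939 to 1.02, through Eomes) than in control KD (0.790 to 0.816) and overlapped it in the other groups, and the part of these markers in the results below was not tested.

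Of the probes that carry the findings, 4 are printed here, taken from Kat5, Dmap1, Morf4l1 and Yeats4 only. Each crosses a spliced-out stretch or has more than 1 open reading frame, counting a frame whose only stop codon is at its end. Each holds at least 1 reading frame free of stop codons. Other subunit probes, not printed, do so too, so an open frame does not show that a probe is coding. In the probe for Kat5 one frame ends on the stop codon in capitals. Sequences and positions are those of the array files, on mouse build mm9, minus strand. The 60 bases of the Dmap1 probe were laid over 286 bases of chromosome 4 and those of the Yeats4 probe over 164 bases of chromosome 10, so that each crosses a spliced-out stretch. Exon and UTR annotation on mm9 was not used here.
Kat5 probe 2 (A_55_P1996329, chr19:5603418-5603477): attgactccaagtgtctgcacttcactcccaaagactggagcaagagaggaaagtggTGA
Dmap1 (A_51_P233788, chr4:117347394-117347679): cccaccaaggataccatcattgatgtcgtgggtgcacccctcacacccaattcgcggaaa
Morf4l1 probe 2 (A_55_P2018559, chr9:89989260-89989319): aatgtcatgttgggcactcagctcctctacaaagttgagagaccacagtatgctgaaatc
Yeats4 (A_66_P112546, chr10:116657483-116657646): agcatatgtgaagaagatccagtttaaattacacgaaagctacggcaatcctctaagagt

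Messages for core subunits moved in both directions. In Tip60 KD, 12 of the 17 probes were called, 6 higher and 6 lower, in 8 of the 10 genes, against 40.7% of all probes (20.2% higher and 20.5% lower). In Hdac6 KD, 7 probes in 5 genes were called, 3 higher and 4 lower, against 30.1% (14.5% higher and 15.6% lower). In double KD, 12 probes in 8 genes were called, 6 higher and 6 lower, against 33.9% (16.6% higher and 17.3% lower). The higher calls in Tip60 KD and double KD include Epc1 probe 2, which exceeded the floor on the 6 knockdown arrays and on no control array. It passed the filter only through the knockdowns, and Epc1 was called in both groups on its other probe as well. Apart from Kat5, the largest differences in Tip60 KD were increases of the scaffold Epc2, the reader Yeats4 and Dmap1 and decreases of the readers Ing3 and Morf4l1. Each of these was also called, in the same direction, in double KD, and each except Dmap1 in Hdac6 KD. For Epc2 and Ing3 the changes came from dimmer probes. The brightest probe of each was called in none of the 3 knockdowns in the fit without a block. With the replicate letter as a block, 13, 9 and 15 of the 17 probes were called in the 3 knockdowns, against 60.8%, 53.1% and 55.7% of all probes, so that the share in Hdac6 KD was near that of all probes. The median difference of the 17 probes was near 0, at 0.0005 in Tip60 KD, 0.04 in Hdac6 KD and 0.13 with both hairpins, and that of all probes was 0.06, 0.03 and 0.05. The median absolute difference was 0.49, 0.17 and 0.41 in the 3 knockdowns, with Kat5 included, and 0.29, 0.24 and 0.25 over all probes. The 2 Kat5 probes, the target of a hairpin, are among the decreases in Tip60 KD and double KD. Of 16 subunit probes with a value on all 8 arrays, 13, 13 and 14 did not overlap control KD in the 3 knockdowns. Over all 22341 such probes the shares were 61.5%, 56.7% and 57.8%. Groups of 2 arrays that lie apart are thus common here, and where given below they are a description only.

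**Figure D1:**
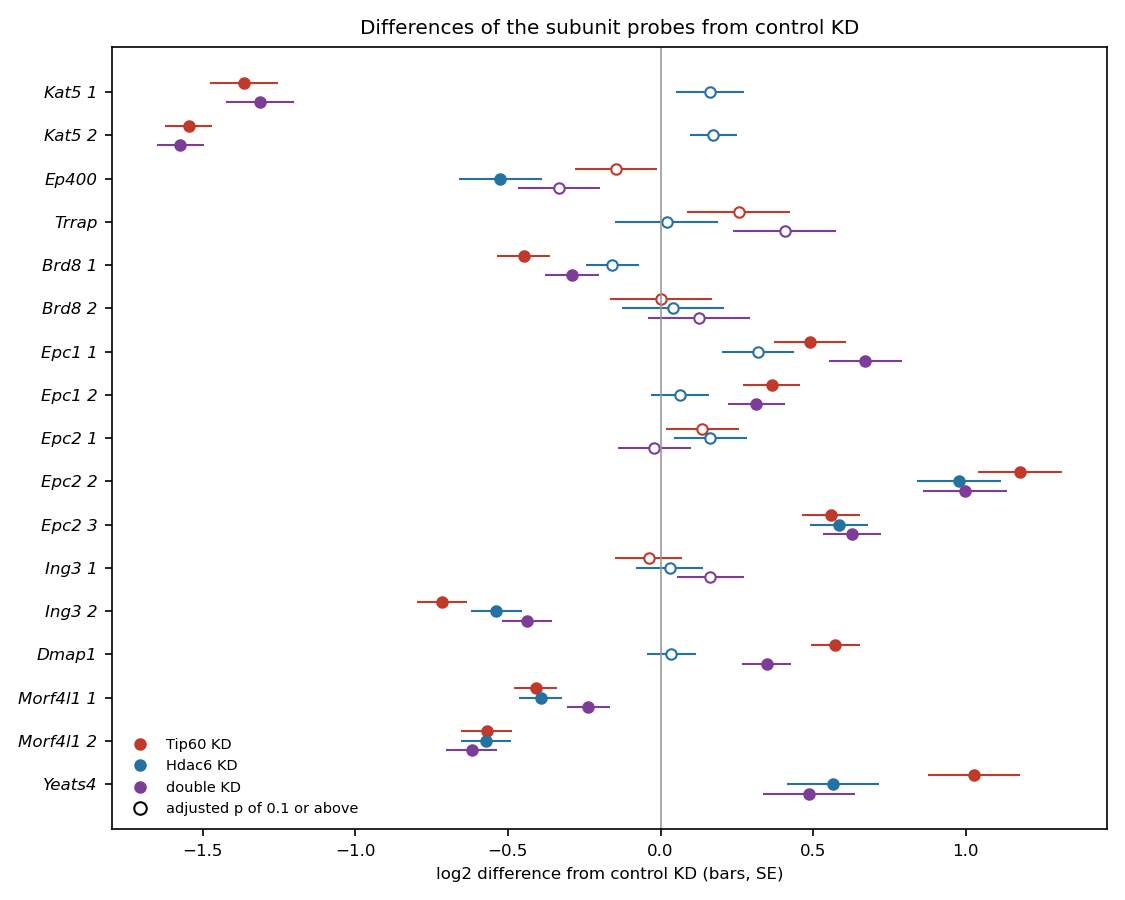
Log2 difference of each subunit probe from control KD (x axis, bars show SE) for 17 probes (y axis), in Tip60 KD (red), Hdac6 KD (blue) and double KD (purple), with filled points called at an adjusted p under 0.1. Kat5 lies to the left in Tip60 KD and double KD, the 2nd Epc2 probe and Yeats4 lie furthest to the right, and Trrap and one probe each of Brd8, Epc2 and Ing3 stay unfilled in all 3 knockdowns.

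Kat5, the acetyltransferase and the target of the Tip60 hairpin, checks the labels. On probe 1 (A_55_P2017714, chr19:5603017-5603076) its signal was 1.26 and 1.30 in control KD, -0.09 on both Tip60 KD arrays, 1.43 and 1.44 under the Hdac6 hairpin, and -0.19 and 0.12 under both. Both groups infected with the Tip60 hairpin lay below both groups without it, with no overlap. Tip60 KD held 38.8% of the control signal (log2 difference -1.36 ± 0.11, SE, adjusted p = 0.00099) and double KD 40.3% (-1.31 ± 0.11, adjusted p = 0.0018). Probe 2, whose sequence ends on the stop codon, lies 401 bases away and read 0.56 and 0.57 under the control hairpin, -1.0 and -0.95 under that for Tip60, 0.68 and 0.80 under that for Hdac6, and -0.99 and -1.02 under both. It gave the same order of groups, with 34.3% of the control signal left in Tip60 KD (-1.55 ± 0.08, adjusted p = 0.00046) and 33.6% with both hairpins (-1.57 ± 0.08, adjusted p = 0.00072). Between the groups with the Tip60 hairpin no difference was called, and double KD differed from Tip60 KD by 0.05 on probe 1 (95% interval -0.22 to 0.33) and by -0.03 on probe 2 (-0.22 to 0.16).

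Kat5 was not lower in Hdac6 KD than in control KD. The difference was 0.16 ± 0.11 on probe 1 (adjusted p = 0.38) and 0.17 ± 0.08 on probe 2 (adjusted p = 0.17), and the arrays of Hdac6 KD lay above those of control KD on both probes. With the replicate letter as a block, probe 2 was called higher (adjusted p = 0.067). Hdac6 itself, read by 2 probes that overlap on the X chromosome, fell to 17.7% and 18.8% of control in Hdac6 KD (log2 differences -2.50 and -2.41, adjusted p = 0.00034 and 0.0015). In double KD it fell to 27.2% and 28.8% (-1.88 and -1.80, adjusted p = 0.00072 and 0.0015). In Tip60 KD it was also lower, at 73.3% and 77.4% of control (-0.45 and -0.37, adjusted p = 0.0052 and 0.098).

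**Figure D2:**
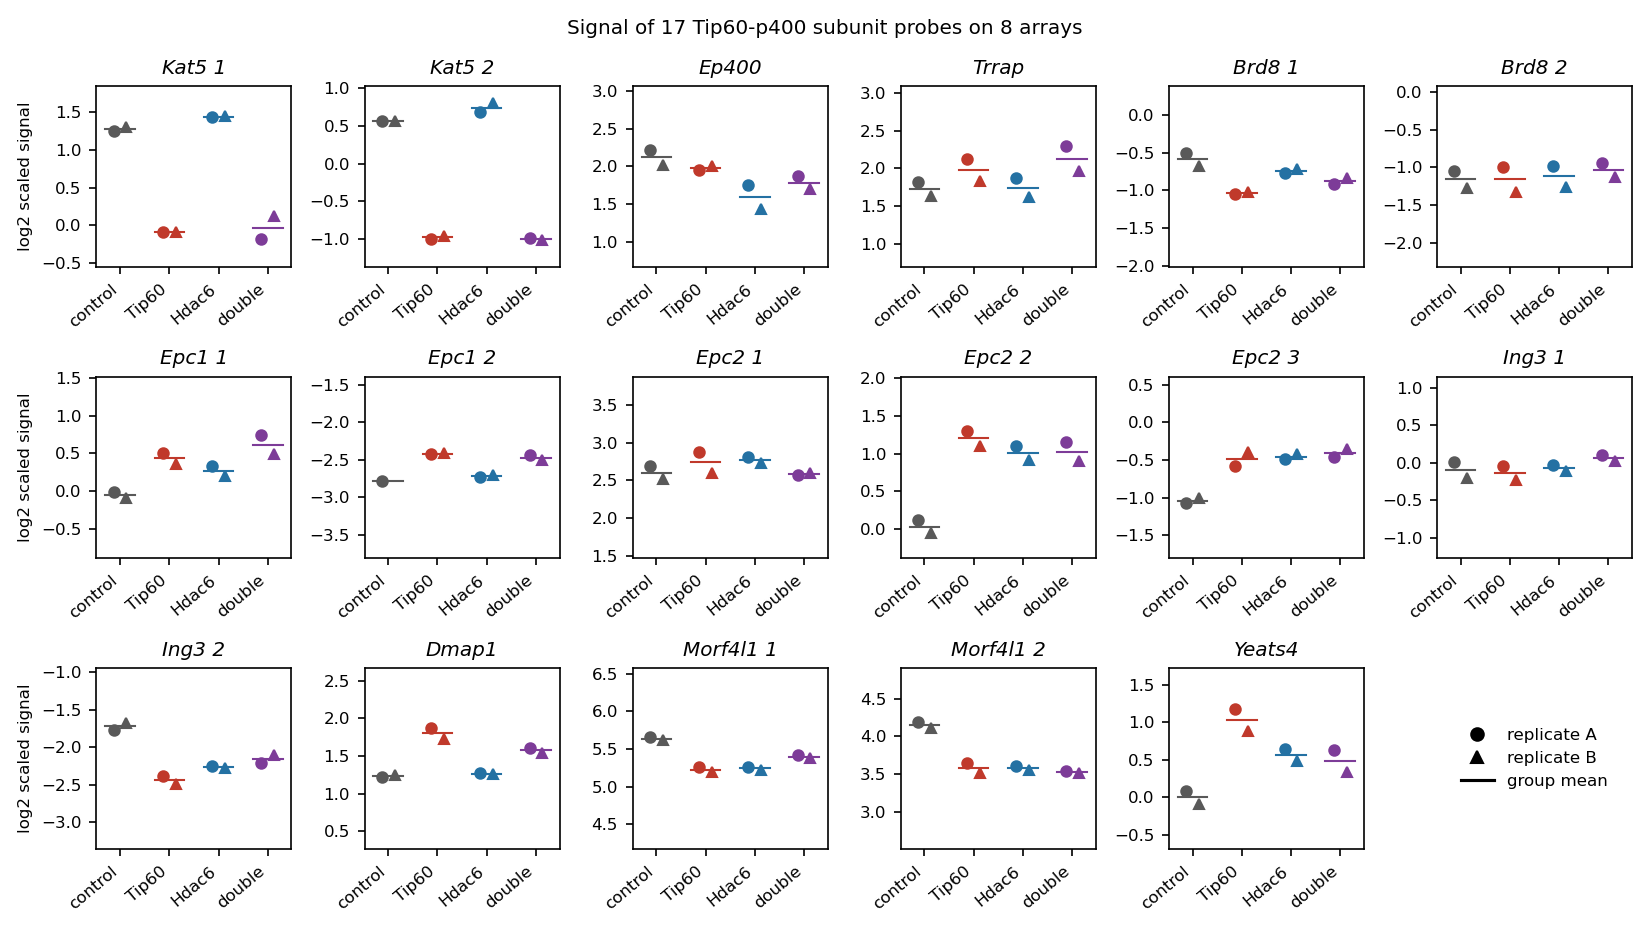
Log2 signal over the 75th percentile of the array (y axis, the same span in every panel) of 17 subunit probes on the arrays of the 4 groups (x axis), with circles for replicate A, triangles for replicate B and lines for group means. Numbers after a gene name order its probes by mean signal. The 4 arrays with a Tip60 hairpin are the low points on both Kat5 panels, and the control arrays are the low points for Yeats4 and the 2nd Epc2 probe and the high points for Morf4l1.

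Ep400, the ATPase that carries out H2A.Z exchange, was lower in Hdac6 KD. Its kept probe (A_55_P1987449, chr5:111093415-111093474) read 2.21 and 2.03 under the control hairpin, 1.95 and 2.00 under that for Tip60, 1.75 and 1.44 under that for Hdac6, and 1.87 and 1.70 under both. All 3 knockdowns lay below control KD, and the Hdac6 KD arrays were the lowest with 1 exception, double KD array B, which lay below Hdac6 KD array A. The difference in Hdac6 KD was -0.52 ± 0.14 (69.5% of control, adjusted p = 0.043), and it was not called without control KD array A (adjusted p = 0.18) or Hdac6 KD array B (adjusted p = 0.18). That of double KD was -0.33 ± 0.14, which passed only with the replicate letter as a block (adjusted p = 0.032 against 0.13 without it), and that of Tip60 KD was -0.15 ± 0.14 (adjusted p = 0.49). The difference between Tip60 KD and Hdac6 KD, 0.38 ± 0.14, did not pass in the main fit, which had no block (adjusted p = 0.12). It passed under 3 of 18 alternatives, the block among them (adjusted p = 0.028). An effect of Hdac6 KD on Ep400 larger than that of Tip60 KD was therefore not shown in the main fit.

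Trrap, the scaffold that receives transcription factors, was called in no comparison of the main fit. In double KD it passed under 3 of 18 alternatives, the replicate block among them. Its probe (A_55_P2024654, chr5:145620534-145620593) read 1.82 and 1.63 under the control hairpin, 2.12 and 1.84 under that for Tip60, 1.87 and 1.62 under that for Hdac6, and 2.29 and 1.97 under both. Replicate A was above replicate B in every group, by a gap as wide as most of the differences between groups. The difference in Tip60 KD was 0.26 ± 0.17 (adjusted p = 0.32), and with both hairpins it was 0.41 ± 0.17 (adjusted p = 0.14). Within the slides the differences in double KD were 0.48 and 0.34 and in Tip60 KD 0.31 and 0.21, and with the replicate block both were called higher (adjusted p = 0.0035 and 0.015). In Hdac6 KD it was 0.02 (95% interval -0.39 to 0.43), and the groups overlapped.

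Of the enhancer-of-polycomb scaffolds, Epc1 was higher in Tip60 KD and double KD and Epc2, on 2 of 3 probes, in all 3 knockdowns. Epc1 probe 1 (A_51_P380986) read -0.01 and -0.10 under the control hairpin, 0.51 and 0.36 under that for Tip60, 0.33 and 0.20 under that for Hdac6, and 0.74 and 0.49 under both. Every knockdown array was above both control arrays, and Epc1 was called higher in Tip60 KD (0.49 ± 0.12, adjusted p = 0.024) and with both hairpins (0.67 ± 0.12, adjusted p = 0.012). The call in Tip60 KD was lost without control KD array B or Tip60 KD array A (adjusted p = 0.11 each). In Hdac6 KD the difference was 0.32 ± 0.12 (adjusted p = 0.11, and 0.011 with the replicate block). It was called under 6 of 18 alternatives, the block among them. Epc1 probe 2 (A_52_P117197) was near the floor, at -2.79 on control KD array A, with control KD array B set aside as an outlier spot, -2.43 and -2.41 under the Tip60 hairpin, -2.73 and -2.71 under that for Hdac6, and -2.44 and -2.51 under both. Its calls of 0.36 ± 0.09 in Tip60 KD (adjusted p = 0.039) and 0.31 ± 0.09 with both hairpins (adjusted p = 0.072) therefore rest on 1 control array at the floor, and in the deposited log2 table, which keeps that spot, both differences were -0.62 and not called. With a lower floor they were 1.14 and 1.09, and a difference of 0.84 was then called in Hdac6 KD as well, so that their size is not fixed by these arrays.

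Epc2 was the core subunit with the largest rise, on the 2nd of its probes. That probe (A_52_P502267, chr2:49405815-49405874) read 0.12 and -0.06 under the control hairpin, 1.31 and 1.11 under that for Tip60, 1.1 and 0.91 under that for Hdac6, and 1.16 and 0.90 under both. The control arrays stood apart from all 6 others, with differences of 1.18 ± 0.14 in Tip60 KD (226.1% of control, adjusted p = 0.0023), 0.98 ± 0.14 in Hdac6 KD (197% of control, adjusted p = 0.0075) and 1.00 ± 0.14 with both hairpins (199.9% of control, adjusted p = 0.0058). Probe 3 (A_55_P2075636, chr2:49406981-49407040) rose less on the log2 scale, from -1.07 and -1.01 under the control hairpin to -0.57 and -0.39 under that for Tip60, -0.49 and -0.42 under that for Hdac6, and -0.46 and -0.36 under both.

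The differences on Epc2 probe 3 were 0.56, 0.58 and 0.63, each ± 0.09, with adjusted p of 0.0073, 0.011 and 0.0073. Probe 1 (A_55_P1977593, chr2:49407403-49407462), which lies 422 bases from probe 3, did not follow. It read 2.69 and 2.52 under the control hairpin, 2.88 and 2.60 under that for Tip60, 2.81 and 2.73 under that for Hdac6, and 2.57 and 2.60 under both. The differences were 0.14, 0.16 and -0.02, each ± 0.12, none of them called, and their 95% intervals ended at 0.43, 0.46 and 0.27, below the estimates of the other probes. The files attach probe 1 to an Ensembl transcript and the other probes to the RefSeq transcript, and all 3 are named Epc2.

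Brd8, the bromodomain subunit, fell on 1 of its 2 probes. Probe 1 (A_55_P1986993) read -0.50 and -0.68 under the control hairpin, -1.05 and -1.03 under that for Tip60, -0.77 and -0.72 under that for Hdac6, and -0.92 and -0.84 under both. All knockdown arrays were below both control arrays, and it was called lower in Tip60 KD (-0.45 ± 0.09, 73.3% of control, adjusted p = 0.012) and with both hairpins (-0.29 ± 0.09, adjusted p = 0.061) but not in Hdac6 KD (-0.16 ± 0.09, adjusted p = 0.27). The call in double KD was lost without control KD array A (adjusted p = 0.22) or either double KD array (adjusted p = 0.19 and 0.12). Probe 2 (A_65_P07450), 2929 bases away, ranged from -1.33 to -0.94 over the 8 arrays, overlapped between groups and was called in no comparison. Its difference in Tip60 KD was 0.0005 (95% interval -0.41 to 0.41).

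Ing3, whose PHD finger reads methylated histone H3, split in the same way. Probe 2 (A_52_P154880, chr6:21925923-21925982) read -1.77 and -1.68 under the control hairpin, -2.39 and -2.49 under that for Tip60, -2.25 and -2.28 under that for Hdac6, and -2.21 and -2.11 under both. The 6 knockdown arrays were all below the controls, with differences of -0.72 ± 0.08 in Tip60 KD (60.9% of control, adjusted p = 0.0022), -0.54 ± 0.08 under the Hdac6 hairpin (68.9%, adjusted p = 0.0094) and -0.44 ± 0.08 with both hairpins (73.8%, adjusted p = 0.015). Probe 1 (A_66_P127255, chr6:21923950-21924009), 1973 bases away and attached to the same RefSeq transcript, ranged from -0.23 to 0.10. It was not called in any comparison, and its differences were -0.04 for Tip60 KD, 0.03 for Hdac6 KD and 0.16 for double KD. With the replicate block the last was called higher (adjusted p = 0.085).

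Morf4l1, the chromodomain subunit also named MRG15, fell on both of its probes in all 3 knockdowns. Probe 2, printed above, read 4.19 and 4.11 under the control hairpin, 3.65 and 3.51 under that for Tip60, 3.60 and 3.55 under that for Hdac6, and 3.54 and 3.52 under both. The 6 knockdown arrays lay close together, and all of them were below both controls. The differences were -0.57 ± 0.08 in Tip60 KD (adjusted p = 0.0043), -0.57 ± 0.08 under the Hdac6 hairpin (adjusted p = 0.0080) and -0.62 ± 0.08 with both hairpins (65.1% of control, adjusted p = 0.0053). Probe 1 (A_55_P1979356, chr9:89986529-89986588) read 5.65 and 5.61 under the control hairpin, 5.26 and 5.19 under that for Tip60, 5.26 and 5.22 under that for Hdac6, and 5.41 and 5.38 under both. It was lower in Tip60 KD (-0.41 ± 0.07, adjusted p = 0.0077), under the Hdac6 hairpin (-0.39 ± 0.07, adjusted p = 0.015) and with both hairpins (-0.24 ± 0.07, adjusted p = 0.059). With quantile normalisation these became -0.22 (adjusted p = 0.056), -0.19 (not called, 0.10) and 0.06 (not called), and in the deposited log2 table -0.24 (0.061), -0.20 (not called, 0.14) and 0.05 (not called). With both hairpins the probe did not pass once any 1 of the 4 arrays compared was left out (adjusted p = 0.13 to 0.19).

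Yeats4, also named Gas41, reads acetylated histones through its YEATS domain and is shared with the SRCAP complex. Its probe, printed above, read 0.08 and -0.08 under the control hairpin, 1.17 and 0.88 under that for Tip60, 0.64 and 0.49 under that for Hdac6, and 0.63 and 0.34 under both. Every knockdown array was above the controls, and the Tip60 KD arrays were the highest. The difference was 1.03 ± 0.15 in Tip60 KD (203.7% of control, adjusted p = 0.0045), 0.57 ± 0.15 in Hdac6 KD (148% of control, adjusted p = 0.047) and 0.49 ± 0.15 with both hairpins (140.2% of control, adjusted p = 0.065). The call in Hdac6 KD was lost without any 1 of the 4 arrays compared (adjusted p = 0.11 to 0.19), and that in double KD without either control array or double KD array A (adjusted p = 0.13 to 0.23). Tip60 KD exceeded Hdac6 KD by 0.46 ± 0.15 (adjusted p = 0.096), also not called without any 1 of the control KD, Tip60 KD or Hdac6 KD arrays. Double KD lay 0.54 ± 0.15 below Tip60 KD, which did not pass without the replicate block (adjusted p = 0.14) and passed with it (adjusted p = 0.010).

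Dmap1, shared with SRCAP as well and known as a partner of a DNA methyltransferase, rose where Tip60 was depleted. Its probe read 1.22 and 1.24 under the control hairpin, 1.87 and 1.73 under that for Tip60, 1.28 and 1.26 under that for Hdac6, and 1.61 and 1.55 under both. The 4 arrays with a Tip60 hairpin were above the 4 without. The difference was 0.57 ± 0.08 in Tip60 KD (148.7% of control, adjusted p = 0.0039) and 0.35 ± 0.08 with both hairpins (127.3% of control, adjusted p = 0.027). In Hdac6 KD it was 0.03 ± 0.08 (95% interval -0.16 to 0.23, adjusted p = 0.83). The contrast between Tip60 KD and Hdac6 KD was itself called (0.54 ± 0.08, adjusted p = 0.010), as was that between double KD and Hdac6 KD (0.31 ± 0.08, adjusted p = 0.089). The last was lost without any 1 of the arrays of control KD, Hdac6 KD or double KD (adjusted p = 0.14 to 0.31), and the call of double KD against control KD without array A of either group (adjusted p = 0.11 each).

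The 3 probes that the filter removed were a 2nd probe of Ep400 (A_51_P508853), a 2nd of Trrap (A_51_P432069) and a 3rd of Epc1 (A_52_P219943). All were at the floor of -2.79 on the 8 arrays, although well above background on 3, 4 and 6 of them, and give no difference here.

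**Figure D3:**
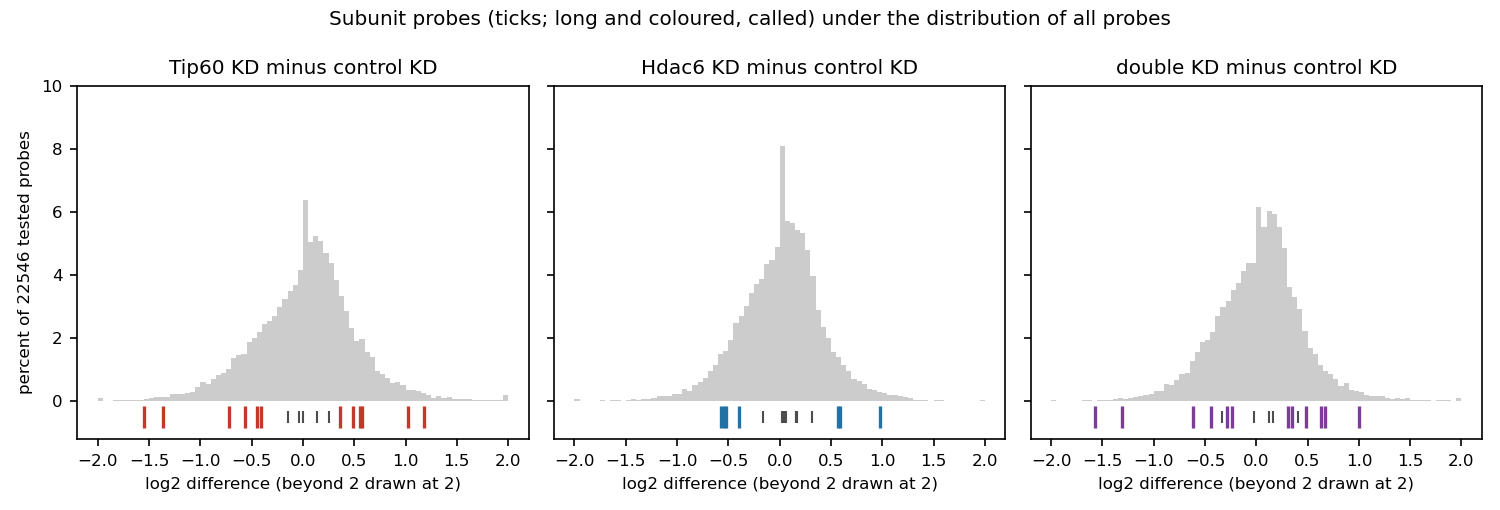
Distribution of the log2 difference from control KD (x axis) over 22546 probes (grey bars, percent of probes on the y axis) in the 3 knockdowns, with a tick under it for each of the 17 subunit probes (long and coloured where called, short and grey where not). The ticks lie on both sides of 0, the 2 Kat5 probes are the leftmost in Tip60 KD and double KD, and an Epc2 probe is the rightmost in all 3.

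Between the knockdowns, fewer subunit probes differed. Tip60 KD and Hdac6 KD differed on 6 of 17 probes (23.9% of all probes), which were both Kat5 probes and Brd8 probe 1 on the lower side and Dmap1, Yeats4 and the near-floor Epc1 probe on the higher. The calls of Brd8 (-0.29, adjusted p = 0.078) and of the Epc1 probe (0.30, adjusted p = 0.062) were lost under 12 of 18 and 8 of 16 alternatives. Of the 6, 3 were left without Tip60 KD array A, Tip60 KD array B or Hdac6 KD array B. Double KD differed from Hdac6 KD on 3 (10.1% of all probes), the Kat5 probes and Dmap1. Between double KD and Tip60 KD, limma called 0 of 17 (4.65% of all probes), while 3 had an unadjusted p under 0.05. With the replicate letter as a block these counts became 10, 7 (double KD minus Hdac6 KD) and 6 (double KD minus Tip60 KD), against 42.1%, 29.3% and 27.6% of all probes. The block added Ep400, Trrap, Epc1 probe 1 and Epc2 probe 2, all higher in Tip60 KD than in Hdac6 KD, and, between double KD and Hdac6 KD, Trrap, both Epc1 probes and Morf4l1 probe 1, all higher with both hairpins. The 6 probes of the last comparison were Yeats4, Dmap1 and Epc2 probe 2, lower in double KD, and Morf4l1 probe 1 and both Ing3 probes, higher.

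The double knockdown was then set against the sum of the single ones. The interaction is the difference in double KD minus the differences in Tip60 KD and Hdac6 KD added on the log2 scale, and 0 would mean that they add. It was called for 6 of 17 probes (23.4% of all probes). It was negative for probes that rose, with -1.16 ± 0.19 on Epc2 probe 2 (adjusted p = 0.018), -1.10 ± 0.21 on Yeats4 (adjusted p = 0.025) and -0.52 ± 0.13 on Epc2 probe 3 (adjusted p = 0.054). It was positive for probes that fell, with 0.82 ± 0.12 on Ing3 probe 2 (adjusted p = 0.013), 0.57 ± 0.10 on Morf4l1 probe 1 (adjusted p = 0.020) and 0.52 ± 0.12 on Morf4l1 probe 2 (adjusted p = 0.037). On each of these probes double KD lay closer to control KD than the single knockdowns added together. The same control arrays enter the interaction and every difference from control KD, with opposite signs. The opposition of signs is therefore partly built in. Where all knockdowns differ alike from control KD, as on Morf4l1 probe 2, the term mostly restates that difference. The term of Epc2 probe 3 was not called without 1 of 6 arrays, which were those of control KD and Hdac6 KD, Tip60 KD array B and double KD array A (adjusted p = 0.11 to 0.16), and that of Morf4l1 probe 2 without control KD array A or Hdac6 KD array B (0.10 and 0.12). For the Kat5 probes the interaction was -0.11 and -0.20, not called. Hdac6 itself held 17.7% and 18.8% of control in Hdac6 KD but 27.2% and 28.8% in double KD. Its depletion was therefore not equal, and the part of this in the interaction was not tested. With the block, Epc2 probe 1, Brd8 probe 1, Dmap1 and Ep400 were called as well, 10 in all, against 47.6% of all probes.

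**Figure D4:**
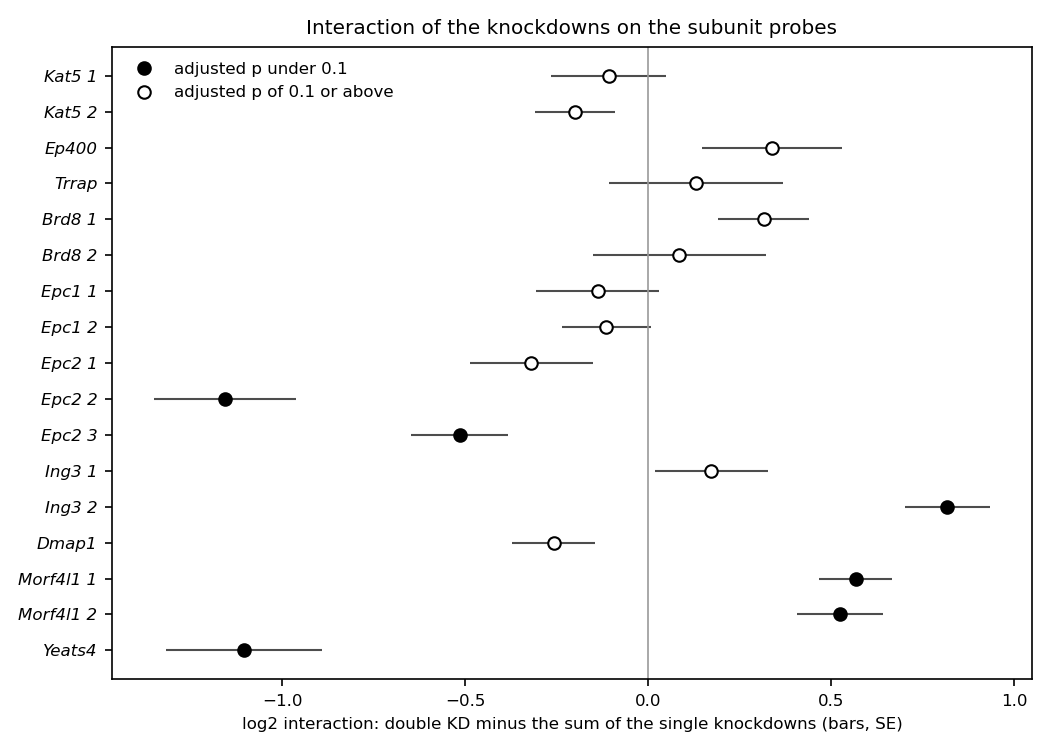
Interaction of the knockdowns (x axis, log2, bars show SE) for the 17 subunit probes (y axis), filled where the adjusted p was under 0.1. The filled points are 2 Epc2 probes and Yeats4 to the left of 0, and 2 Morf4l1 probes and 1 Ing3 probe to the right.

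Across the 8 arrays, the probe most like Kat5 probe 1 among 17475 probes above the floor on every array was Kat5 probe 2 (Pearson r = 0.992). Next, with 1 probe a gene, came Bspry (0.992), Gstt2 (0.991), a probe named only by a transcript, Pdcd2 (0.987) and Dnajc9 (0.987). The mean of Bspry was 0.08 on the control arrays and -0.96, 0.34 and -0.81 on those of Tip60 KD, Hdac6 KD and both together, while that of Pdcd2 was 2.38, then 1.85, 2.37 and 1.82. The 8 points are 4 groups of 2, so the likeness is a description of the group means.

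Promoter sequence was read for 8 of the 10 genes from RefSeq on build GRCm38.p6, as the 250 bases before each start, in 10 windows. Epc2, Yeats4, Ing3 and Morf4l1 are printed because each was called on at least 1 probe in all 3 knockdowns, the first pair higher and the last pair lower. The upstream of 2 Ing3 windows is shown. Capitals mark matches, on either strand, to GGGCGG (the GC box), CCAAT (the CCAAT box) or GCGCATGC (a core of the NRF1 motif).
Epc2 (chr2:49451236-49451485, plus strand): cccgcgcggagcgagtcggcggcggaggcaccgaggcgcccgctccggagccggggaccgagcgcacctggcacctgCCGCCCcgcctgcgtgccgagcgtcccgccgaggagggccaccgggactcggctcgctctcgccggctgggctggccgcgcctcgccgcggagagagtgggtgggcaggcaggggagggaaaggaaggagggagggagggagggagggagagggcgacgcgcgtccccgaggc
Yeats4 (chr10:117224508-117224757, minus strand): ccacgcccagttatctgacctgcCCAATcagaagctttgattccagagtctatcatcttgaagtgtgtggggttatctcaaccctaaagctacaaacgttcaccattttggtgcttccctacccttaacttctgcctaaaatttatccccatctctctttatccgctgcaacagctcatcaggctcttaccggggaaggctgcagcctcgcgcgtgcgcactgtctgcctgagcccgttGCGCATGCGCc
Ing3 (chr6:21949321-21949570, plus strand): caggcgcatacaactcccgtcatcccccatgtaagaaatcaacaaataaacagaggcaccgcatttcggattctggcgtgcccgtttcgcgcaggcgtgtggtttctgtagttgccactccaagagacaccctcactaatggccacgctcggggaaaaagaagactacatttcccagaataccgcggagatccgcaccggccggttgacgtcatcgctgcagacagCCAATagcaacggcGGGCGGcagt
Morf4l1 (chr9:90114821-90115070, minus strand): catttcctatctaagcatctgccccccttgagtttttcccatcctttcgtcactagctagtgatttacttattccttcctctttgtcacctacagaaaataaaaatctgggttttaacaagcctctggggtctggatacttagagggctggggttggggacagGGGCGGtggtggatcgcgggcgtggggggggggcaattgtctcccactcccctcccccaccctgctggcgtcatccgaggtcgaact

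The GC box was found in 7 of the 10 windows, against 32.7% of 32851 windows of the same length, and the CCAAT box in 4, against 33.8%. A GCGCATGC match, overlapping its own reverse complement, was found for Yeats4 alone (2.26% of all windows), CCGGAAG, the ETS motif, for Dmap1 alone (6.91%), and CACGTG, the E-box, for the upstream Kat5 window alone (6.02%). AAGATGGC, a core of the YY1 motif, was in none of them (1.56%). The Epc2 window had 79.2% G and C, Yeats4 52.4% and Morf4l1 54%, with a median of 52.4% over all windows. Ep400 had 70%, Trrap 69.6%, Kat5 55.2% and 71.6%, Ing3 56% and 56.4%, and Dmap1 54.8%. None of the 10 windows lay below that median, and the part of base composition in the motif counts was not tested. The pair of Ing3 windows overlap, and the counts describe letters only.

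The remaining subunits of Tip60-p400 gave 11 tested probes in 8 genes. In Tip60 KD 5 were called (2 higher, 3 lower), in Hdac6 KD 2 (both higher) and with both hairpins 5 (3 higher, 2 lower), against 40.7%, 30.1% and 33.9% of all probes, with medians of -0.002, 0.06 and 0.03. Actl6a, the actin-related BAF53a, was higher by 0.92 in Tip60 KD (adjusted p = 0.0033), 0.36 under the Hdac6 hairpin (adjusted p = 0.095) and 0.58 with both hairpins (adjusted p = 0.021). Vps72, the H2A.Z chaperone YL1, was higher with both hairpins (0.67, adjusted p = 0.024). Of 3 probes of Mbtd1, an MBT-domain reader, 2 were lower in Tip60 KD, by -0.52 each (adjusted p = 0.035 and 0.014). Meaf6 was higher on 1 of 2 probes in Tip60 KD (0.46, adjusted p = 0.022) and with both hairpins (0.40, adjusted p = 0.042). Actb, the actin that the complex holds and that often serves as a reference gene, was lower in Tip60 KD (-0.61, adjusted p = 0.0043) and higher in Hdac6 KD (0.50, adjusted p = 0.014). The ATPases Ruvbl1 and Ruvbl2 were not called in any knockdown.

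The SRCAP complex carries out the same exchange of H2A.Z. Of its 4 tested probes, Znhit1 probe A_66_P131708 was higher in Tip60 KD (0.41), Hdac6 KD (0.42) and with both hairpins (0.52), with adjusted p of 0.010, 0.016 and 0.0070, and its other probe in Tip60 KD (0.63, adjusted p = 0.072), while Srcap and Actr6 were not called. The other MYST enzymes, relatives of Kat5, gave 5 probes. Kat6b, named Myst4 in the files, was higher on 1 of its 2 probes in Tip60 KD (0.64, adjusted p = 0.0082) and on both in Hdac6 KD and double KD. Its other probe lay at or near the floor in control KD (-2.75 and -2.79) and Tip60 KD (-2.76 and -2.69), which limits its differences. Kat7 (Myst2) was lower by -0.27 to -0.29 in all 3 knockdowns. Kat8 and Kat6a were not called. Of the scaffolds and readers of those enzymes, 7, 6 and 9 of 14 probes were called (against the same 40.7%, 30.1% and 33.9%), of which 3, 4 and 3 were higher and 4, 2 and 6 lower. The largest rise was that of Jade2 (Phf15 in the files), which was higher by 1.5 in Tip60 KD, 1.89 in Hdac6 KD and 1.84 with both hairpins (adjusted p = 0.00050, 0.00090 and 0.00072). Brpf3, a scaffold, was lower by -1.21 in Tip60 KD (adjusted p = 0.0037) and -0.75 with both hairpins (adjusted p = 0.024), and Msl2 was lower by -0.54, -0.67 and -0.67 in the 3 knockdowns.

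Of 10 probes for the ING and YEATS relatives of Ing3 and Yeats4, 2, 1 and 1 were called, all higher, each a smaller share than the 40.7%, 30.1% and 33.9% of all probes. Mllt3, the YEATS protein AF9, was higher by 0.71, 0.70 and 0.86 on 1 of 2 probes. The coactivator SAGA, which shares Trrap, had 12, 6 and 8 of 19 probes called, 8, 4 and 6 of them higher, which in Hdac6 KD was near the 30.1% of all probes and in Tip60 KD and double KD stood against 40.7% and 33.9%. Tada3, an adaptor of its acetyltransferase module, led on 1 probe with 1.69 in Tip60 KD, 0.80 in Hdac6 KD and 1.22 with both hairpins. Its other, brighter probe rose less, by 0.73, 0.27 and 0.67 (adjusted p = 0.0032, 0.098 and 0.0063). Kat2a, its acetyltransferase Gcn5, was higher by 0.73 in Tip60 KD (adjusted p = 0.0014) and 0.31 with both hairpins (adjusted p = 0.026) on 1 of 2 probes. Atxn7, of its deubiquitinase module, was lower by -0.45, -0.56 and -0.74 in the 3 knockdowns (adjusted p = 0.068, 0.046 and 0.018).

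**Figure D5:**
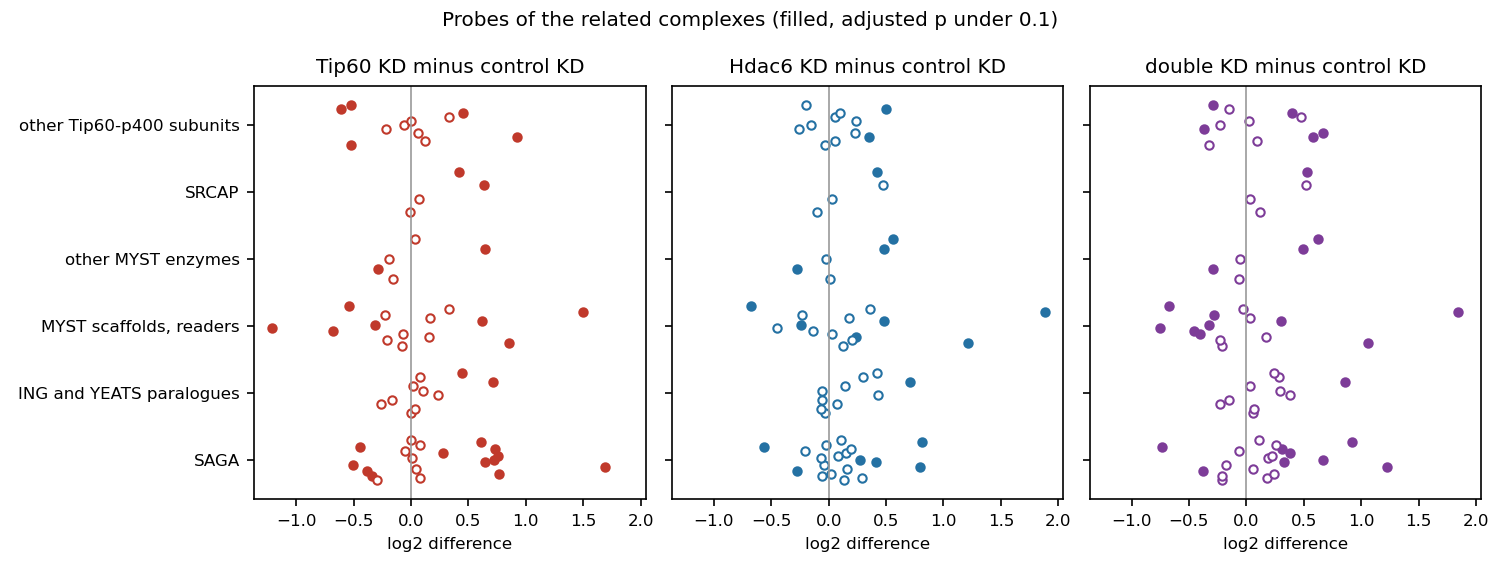
Log2 difference from control KD (x axis, the same in all panels) of every tested probe of 6 gene lists (y axis) in the 3 knockdowns, filled where called at an adjusted p under 0.1. Points fall on both sides of 0 in the lists of the other Tip60-p400 subunits and of SAGA, where 1 Tada3 probe reached 1.69 in Tip60 KD.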

How the data were processed

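RNA from 8 cultures in 4 groups of 2 was labelled with Cy3 and hybridised to 1-colour Agilent mouse arrays. Spots were quantified by the authors with Agilent Feature Extraction 10.7.1.1, and the deposited scanner files hold fluorescence intensity, including a processed signal, which the software corrects for background. The authors also deposited a table of log2 values, which ranks the probes of each array as its median signal does.

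Groups were taken from the labels. Spots marked as outliers were set to missing, spots of a probe were averaged, and the processed signal was divided by the 75th percentile of its array, raised to a common floor (0.145 of the percentile, -2.79 on the log2 scale) and converted to log2. The floor was set by the array whose weakest spot called well above background was the brightest, and 9.13% of all kept values lay on it. Probes that passed the background call and exceeded the floor on 2 or more arrays were kept. Of the 20 subunit probes, 15 carry a RefSeq accession that gives the same gene. Differences were tested for each probe with limma 3.58.1 (lmFit and eBayes, 2-sided) in R 4.3.3, over all kept probes and all 8 arrays, without a block, and called at a Benjamini-Hochberg adjusted p under 0.1, the study's threshold. Residual degrees of freedom were 4, to which the prior added 1.90. Precision is limited by the number of arrays. The p-values measure the spread between these samples, which without a block includes any shift shared by arrays of the same letter.

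The labels give groups the same letters, A and B, and each letter is 1 slide. Deviations of same-lettered arrays correlated across probes in all 6 pairs of groups (0.645 to 0.787), so that the letters pair the arrays. Calls with the letter as a block are given where they differ. Alternatives were normexp background correction, quantile normalisation, the deposited log2 table, no filter, a lower floor, missing values in place of the floor, 1 probe or the mean of the probes per gene, only the arrays compared, members by accession, and leaving out each array. The steps were tested on simulated data. Figures were drawn with matplotlib 3.10.9 under Python 3.11.15.

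The members, the lists of related genes and the tests were chosen with earlier results of these data known. Named genes are all members, Hdac6, at most 6 called probes of each list, by size of difference, and the 5 genes most correlated with Kat5. No hairpin sequence is printed.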

Additional observations from a re-analysis of the deposited data

Results flagged for a closer look

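The change with the Hdac6 hairpin differed between cells with and without the Tip60 hairpin on 6 subunit probes. The test was limma's interaction term at an adjusted p under 0.1. The term was -1.16 on Epc2 probe A_52_P502267 (adjusted p = 0.018), -1.10 on Yeats4 probe A_66_P112546 (0.025), -0.52 on Epc2 probe A_55_P2075636 (0.054), 0.82 on Ing3 probe A_52_P154880 (0.013), 0.57 on Morf4l1 probe A_55_P1979356 (0.020) and 0.52 on Morf4l1 probe A_55_P2018559 (0.037). On Yeats4 the difference with the Hdac6 hairpin was 0.57 alone (adjusted p = 0.047, lost without any 1 of the 4 arrays compared) and -0.54 beside the Tip60 hairpin, which did not pass (adjusted p = 0.14). The term was called for 23.4% of all probes. Hdac6 was not depleted equally with and without the Tip60 hairpin. On its probes it held 17.7% and 18.8% of control in Hdac6 KD. It held 73.3% and 77.4% in Tip60 KD and 27.2% and 28.8% in double KD. The part of this inequality in the term was not tested.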

How the results depend on the processing

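Counts of called subunit probes kept within 1.5 times their value under most alternatives. The replicate block raised the count from 6 to 10 between Tip60 KD and Hdac6 KD, from 0 to 6 between double KD and Tip60 KD, from 3 to 7 between double KD and Hdac6 KD, and from 6 to 10 for the interaction, and against control KD it gave 13, 9 and 15 in place of 12, 7 and 12. The block also raised the share of all probes called, to 60.8%, 53.1% and 55.7% against control KD and to 27.6% to 47.6% in the other comparisons. Between Tip60 KD and Hdac6 KD, 3 probes were called with normexp, with the deposited log2 table and with only the compared arrays, and between double KD and Hdac6 KD, 0 with only the compared arrays. Counting genes by their probe of highest mean gave 6, 3 and 6 against control KD and 2 for the interaction, and by the mean of their probes 7 and 6 in Tip60 KD and double KD and 3 between Tip60 KD and Hdac6 KD. Leaving out 1 array gave 10 to 12, 5 to 8 and 7 to 11 against control KD, the 7 in double KD without control KD array A or double KD array A, and 3 to 5, 0 and 2 to 3 between Tip60 KD and Hdac6 KD, double KD and Tip60 KD, and double KD and Hdac6 KD, and 4 to 6 for the interaction.

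Morf4l1 probe 1 in double KD turned to 0.060 with quantile normalisation and 0.050 in the deposited table, and Epc1 probe 2 turned to -0.62 in that table in Tip60 KD and double KD. Against control KD, Ep400 in Hdac6 KD lost its call under 5 of 18 alternatives, Yeats4 in Hdac6 KD and double KD under 6 and 7, and Brd8 probe 1 in double KD under 7, while Dmap1 between double KD and Hdac6 KD lost it under 9 and Yeats4 between Tip60 KD and Hdac6 KD under 11. The mean of its probes gave Epc2 0.54 in double KD and Ing3 -0.25 in Hdac6 KD, where the brightest probe gave -0.02 and 0.03. For the other values, 101 lost and 44 gained a call. A further 1832 kept their status, which includes values called in neither fit, so this count does not measure how well calls held. The Kat5 calls in Tip60 KD and double KD held under every alternative, from -1.57 to -1.33 and from -1.59 to -1.16. Low signal limits the near-floor Epc1 probe.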
